A study of Mus musculus with 48 samples.

Results

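The genes described here are 35 lysosomal genes other than cathepsins, out of 48526 genes in the deposited table, chosen by symbol: 10 membrane proteins (Lamp1, Lamp2, Cd63, Cd68, Npc1, Scarb2, Laptm5, Laptm4a, Mcoln1 and Ctns), 14 hydrolases (Gusb, Hexa, Gaa, Man2b1, Manba, Neu1, Asah1, Tpp1, Ppt1, Lgmn, Glb1, Arsb, Naglu and Sgsh), 3 other proteins of the lumen (Npc2, Psap and Grn), 7 proteins of the proton pump or V-ATPase (Atp6v0c, Atp6v0d1, Atp6v1a, Atp6v1b2, Atp6v1h, Atp6ap1 and Atp6ap2) and the transcription factor Tfeb.

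They were measured by bulk RNA sequencing in microglia of the hippocampus of C57BL/6 mice. Mice received a single whole brain dose of 8 Gy (IR) from an X-RAD320 machine, or a sham procedure (SH), on postnatal day 21, and were killed 2 h, 6 h, 1 day or 1 week later, with 6 animals and 6 libraries in each of the 8 groups. After perfusion and mild enzymatic digestion, flow cytometry collected cells by Cx3cr1, the fractalkine receptor that marks microglia in the brain. The labels give no genotype beyond the strain and do not say how Cx3cr1 was detected, and animals of the later groups were older in both arms.

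Values are RPKM, reads per kilobase of gene per 1000000 reads, where the gene length used by the authors runs from gene start to gene end with introns, so that RPKM can be compared between libraries for 1 gene but not between genes. The question was which of these genes differed between irradiated and sham libraries of the same time. Changes are irradiated minus sham on the scale of log2(RPKM + 1), which understates the change of genes with low values. They are given with their standard error (SE), from 1 estimate of spread per gene shared by all 8 groups. The SE of a gene is therefore the same at each time and does not show the spread of the groups compared. A gene is said to have risen or fallen where the limma test across 10132 genes gave a Benjamini-Hochberg adjusted p under 0.05 (two-sided). Of the 35 genes, 33 passed the filter on low values (at least 6 libraries with an RPKM of 1 or more). Manba, which encodes beta-mannosidase, and Atp6v1h, a regulatory subunit of the pump, did not, with 0.266 to 1.39 and 0.339 to 1.14 RPKM over all libraries.

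Lysosomes are the acid compartments in which cells break down proteins, lipids, glycans and engulfed material. The V-ATPase pumps protons into the lumen, hydrolases that work at low pH cleave the cargo, and membrane proteins shield the limiting membrane, export the products and release calcium. The transcription factor TFEB, which growth signalling holds in the cytoplasm, binds a short palindromic element in the promoters of many of these genes. Microglia, the resident phagocytes of the brain, are rich in lysosomes, and CD68 is widely used as a stain for their phagocytic state.

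Because TFEB is known to act through that element, the promoters in RefSeq's GRCm38.p6 annotation were read, from 250 bases before to 50 bases after each annotated start (300 bases). In all, 31 of the 35 genes matched, with 38 windows. The core CACGTG lay in 9 windows of 9 genes (Atp6v0d1, Atp6v1a, Gaa, Glb1, Lamp1, Lgmn, Mcoln1, Naglu and Sgsh), which is 23.7% of their windows against 7.15% of all 32851 windows. Its longer form TCACGTGA, which contains the core, lay in 3 windows, 7.89% against 0.974%. Both read the same on the 2 strands. A match is a description of these letters and not a measured binding site. The 3 promoters with the longer form are shown from 150 bases before to 30 bases after the start, 5′ to 3′ on the gene's strand. All 3 genes (a calcium channel and 2 pump subunits) rose at 6 h with all 6 sham libraries. Of the 9 genes with the core, 5 rose at 6 h (these 3, Gaa and Naglu) and 4 did not pass the test (Glb1, Lamp1, Lgmn and Sgsh), while 10 of the 15 genes that rose hold no core in their windows. Among the genes tested whose windows hold no core, 10 rose at 6 h, 1 fell and 10 did not pass the test. These 6 h calls use all 6 sham libraries. Against sham libraries 5 and 6 alone, no gene with the core was called, while Laptm5 and Gusb, which hold no core, rose. The first 50 bases after the start open a GENCODE transcript of the gene in 12 of the 38 windows. The RefSeq start of Atp6v1a (44139259) lies 446 bases inside the gene as deposited, whose 5′ end is at 44139705. Capitals mark the core and, where present, the longer form. Counted from the start, the core nearest to it begins at -45 in Mcoln1 (chr8:3500369-3500548, plus strand), at -3 in Atp6v0d1 (chr8:105566035-105566214, minus strand) and at -131 in Atp6v1a (chr16:44139230-44139409, minus strand).
Mcoln1: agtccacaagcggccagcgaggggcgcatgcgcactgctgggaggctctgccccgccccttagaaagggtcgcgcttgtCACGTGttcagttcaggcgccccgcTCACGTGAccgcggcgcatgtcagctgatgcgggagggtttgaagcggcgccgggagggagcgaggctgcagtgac
Atp6v0d1: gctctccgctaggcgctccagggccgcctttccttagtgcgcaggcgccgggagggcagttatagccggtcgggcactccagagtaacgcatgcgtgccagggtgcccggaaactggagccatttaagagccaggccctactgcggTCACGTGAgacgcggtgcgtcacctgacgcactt
Atp6v1a: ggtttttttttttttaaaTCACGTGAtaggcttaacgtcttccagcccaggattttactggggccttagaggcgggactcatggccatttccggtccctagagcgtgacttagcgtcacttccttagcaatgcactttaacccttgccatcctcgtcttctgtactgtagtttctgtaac

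Libraries held 175382 to 3856777 reads on genes, and library 4 of sham 6 h, library 2 of irradiated 2 h and library 6 of sham 1 day held under 1000000. The microglial markers fixed for this work (10 genes) were above 0 in all 48 libraries, while the monocyte and neutrophil genes S100a8, S100a9, Ngp, Ly6c2, Camp and Chil3 were at 0 in 41 to 47 of 48. The other 2 genes of that list were detected, Ccr2 in all 48 libraries (1 to 69 reads) and Plac8 in all but 2 (up to 183 reads). The sham libraries of 6 h fell into 2 sets. On the first principal component of all genes tested (15.4% of the variance), sham 6 h libraries 1 to 4 lay between -43.1 and -36.0 and libraries 5 and 6 at 11.3 and 16, beside irradiated 6 h libraries at 12.3 to 21.1. All 12 libraries of 2 h, sham and irradiated, lay at -43.7 to -10.1, and the sham libraries of 1 day and 1 week at 13.9 to 22.6. Irradiated libraries of 1 week were divided as well, libraries 2 and 3 at 17.8 and 14.4 and libraries 1, 4, 5 and 6 at -4.0 to 6.49. The labels give no batch or reason, so each gene among the 35 that rose or fell at 6 h is also given with libraries 5 and 6 as the only 6 h sham libraries. In bulk RNA, fewer cells of a type and less RNA per cell cannot be told apart.

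At 6 h, 15 of the 33 lysosomal genes tested rose after irradiation (45.5%) and 2 fell (6.06%), where 12.9% of all genes tested rose and 8.0% fell. A day after the dose 9 rose (27.3%) and 0 fell, with 22 and 13 genes at an unadjusted p under 0.05 at these times and 2.9% and 1.39% of all genes higher and lower at 1 day. At 2 h, 1 gene rose and 2 fell (8 at an unadjusted p under 0.05), against 4.6% and 4.02% of all genes. By 1 week, 2 were higher and 1 lower (10 at an unadjusted p under 0.05), against 2.03% and 1.51%.

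The median change of the 33 genes was -0.13 at 2 h, 0.25 at 6 h, 0.21 at 1 day and 0.05 at 1 week, beside medians of -0.01, 0.08, 0.00 and 0.05 over all genes. Counted by library, all 6 irradiated values lay above all 6 sham values for 13 of the 33 genes at 6 h (4.96% of all genes) and below them for 1 (2.88%). The same counts were 8 and 0 at 1 day (2.29% and 0.691% of all genes), 0 and 1 at 2 h (2.47% and 2.03%), and 1 and 1 at 1 week (2.06% and 1.12%). With median of ratios scaling, 12 of the lysosomal genes rose and 5 fell at 6 h, Lgmn, Asah1 and Grn joining those that fell, and with trends on gene span and GC content removed 11 rose and 3 fell. Over all genes, 61.7% of the 6 h calls were higher, 51.6% with median of ratios scaling and 51.1% with the trends removed.

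**Figure D1:**
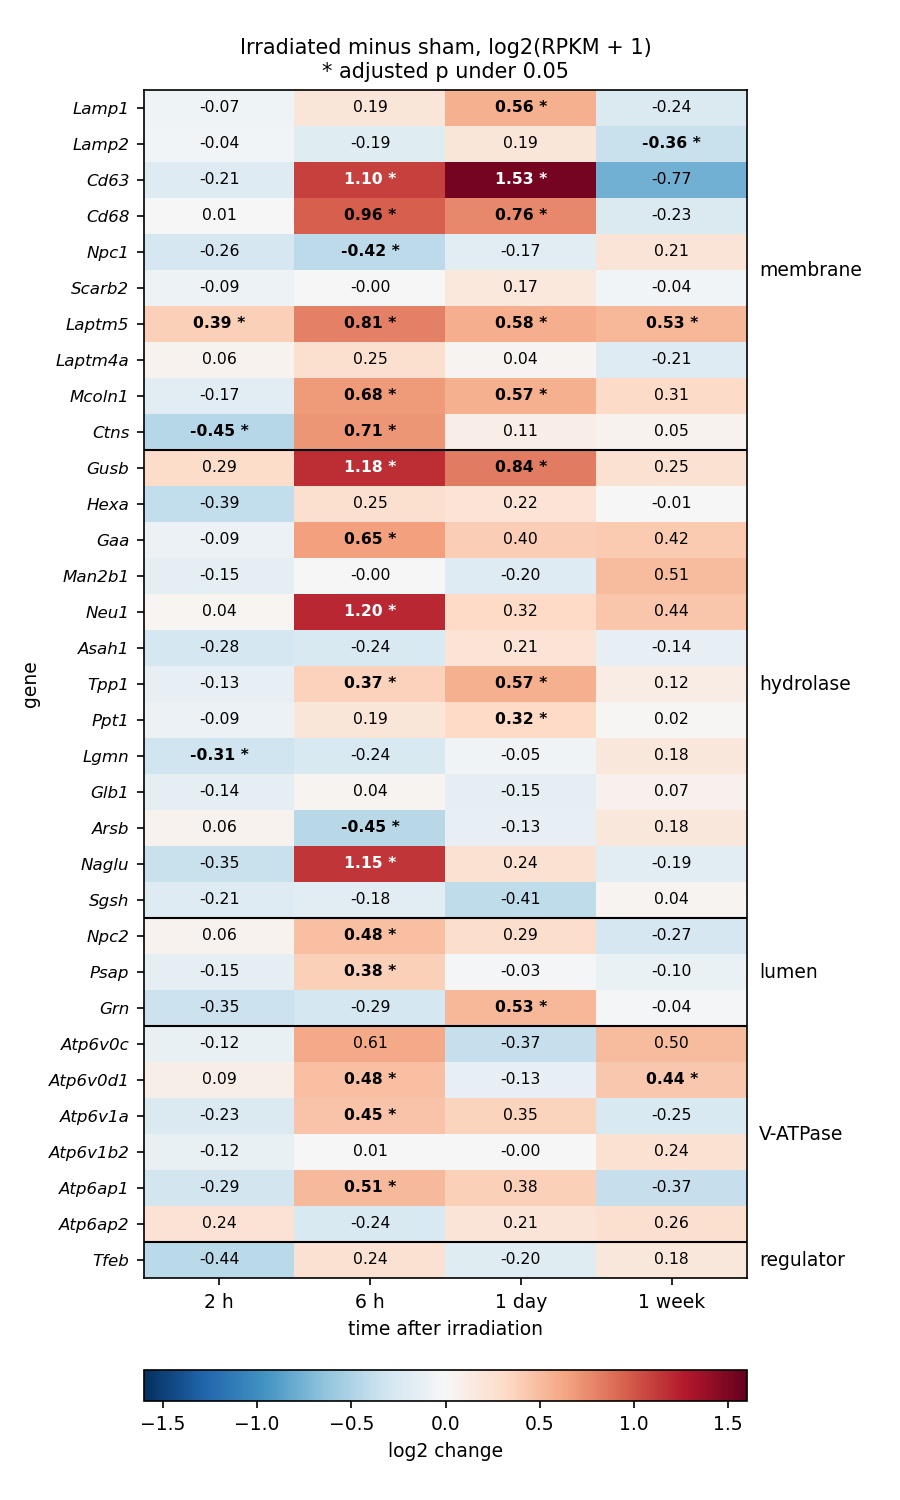
Heat map of the irradiated minus sham change, log2(RPKM + 1), for the 33 lysosomal genes tested (rows, by subclass) at 4 times (columns), each from 6 irradiated and 6 sham libraries, with an asterisk where the adjusted p was under 0.05. Asterisks are most frequent at 6 h (17 genes) and 1 day (9), with 3 at 2 h and 3 at 1 week, and only Laptm5 has one at every time, that at 2 h being lost when each time was fitted alone (adjusted p = 0.051).

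Among the 10 membrane proteins, 5 rose and 1 fell at 6 h, 5 rose at 1 day, and 1 rose and 1 fell both at 2 h and at 1 week. Beside this and the other subclass counts, 12.9% of all genes rose and 8.0% fell at 6 h, and 2.9% and 1.39% at 1 day. The shares were 4.6% and 4.02% at 2 h, and 2.03% and 1.51% at 1 week. Of those that rose, Laptm5 was called at all 4 times, and Cd63, Cd68, Laptm5 and Mcoln1 were in both sets. Laptm5, a lysosomal transmembrane protein of blood-lineage cells that lowers surface receptors (chr4:130913125-130936141), was the 1 lysosomal gene with that record. Its lowest, median and highest RPKM were 104, 125 and 148 in sham and 146, 162 and 164 in irradiated libraries at 2 h, a change of 0.39 ± 0.09 (adjusted p = 0.0015), with 5 of 6 irradiated libraries above every sham library. This 2 h call was lost when each time was fitted alone (adjusted p = 0.051). At 6 h they were 118, 149 and 179 against 235, 249 and 276, a change of 0.81 ± 0.09 (adjusted p = 1.1e-09), or a 1.74-fold ratio of means. The 2 groups did not overlap, and the change was 0.63 (adjusted p = 0.00022) against sham libraries 5 and 6 alone. At 1 day sham libraries held 149, 162 and 194 and irradiated ones 201, 249 and 275 (0.58 ± 0.09, adjusted p = 4.9e-06). At 1 week they held 154, 155 and 173 against 219.9, 229.8 and 234 (0.53 ± 0.09, adjusted p = 0.00013), again with no overlap.

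Cd63, a tetraspanin of late endosomes, lysosomes and exosomes (chr10:128908919-128912816), had the widest change of the 33 genes at 1 day. At 2 h the groups overlapped (8.40 to 17.3 RPKM in sham, 6.48 to 17 in irradiated libraries). At 6 h the 6 sham libraries held 16.9, 12, 8.64, 8.41, 26.1 and 25.7 RPKM and the irradiated ones 27.5, 31.5 and 39.9 (lowest, median and highest), a change of 1.10 ± 0.25 (adjusted p = 0.0012). Sham libraries 5 and 6 were the high ones, close under the irradiated range, and against them alone the change was 0.32 (adjusted p = 0.88). With trends on gene span and GC content removed the 6 h change was not past the threshold either, at 0.59 (adjusted p = 0.11). At 1 day the irradiated libraries 1 to 6 held 112, 160.4, 96.9, 48.8, 52.2 and 45.3 RPKM beside sham values of 21.3 to 30.2, a change of 1.53 ± 0.25 (adjusted p = 2.7e-05) and a 3.29-fold ratio of means. All 6 were above every sham library, and libraries 1 to 3 lay well above 4 to 6. At 1 week irradiated libraries were at 13 to 22 and sham at 20.03 to 34 RPKM, -0.77 ± 0.25, which did not pass the test (adjusted p = 0.072). The table also lists a pseudogene, Cd63-ps, with 1 to 29 reads per sham and 22 to 148 per irradiated library at 1 day, so Cd63 values are uncertain to the extent that reads were split between the copies.

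Cd68, the macrophage glycoprotein macrosialin (chr11:69664213-69666153), also rose at 6 h and 1 day. At 2 h its values overlapped (0.01 ± 0.17, adjusted p = 0.998). The 6 sham libraries of 6 h held 242, 362, 341, 331, 663 and 616 RPKM and the irradiated ones 722, 761 and 843, a rise of 0.96 ± 0.17 (adjusted p = 3.2e-05, 1.83-fold). No irradiated value fell within the sham range, but sham libraries 5 and 6 lay nearly as high, and against them alone the change was 0.28 (adjusted p = 0.7). At 1 day sham libraries held 614, 716 and 817 and irradiated libraries 1011, 1191 and 1558 RPKM, a rise of 0.76 ± 0.17 (adjusted p = 0.002, 1.71-fold) with no overlap. At 1 week the ranges overlapped (-0.23 ± 0.17, adjusted p = 0.49).

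The major glycoproteins of the limiting membrane differed from these in timing. Lamp1 (chr8:13159161-13175338) was at 56.2 to 73.1 RPKM in sham and 66.3 to 76.5 in irradiated libraries at 6 h (0.19 ± 0.09, adjusted p = 0.14). At 1 day the irradiated libraries 1 to 6 held 92.3, 109, 105, 84.4, 79.1 and 75.6 RPKM, against a lowest, median and highest of 57.2, 59.6 and 67.3 in sham, a rise of 0.56 ± 0.09 (adjusted p = 4.8e-05, 1.5-fold). Every irradiated library was above every sham library, and libraries 1 to 3 were again the highest. At 1 week the irradiated values (40.7 to 51.2 RPKM) all lay below the sham values (51.8 to 60.6), though the difference of -0.24 ± 0.09 did not pass the test (adjusted p = 0.16). Lamp2, whose isoforms serve membrane stability and chaperone-mediated autophagy, did not pass the test at the 3 earlier times. At 1 week its lowest, median and highest RPKM were 5.71, 7.09 and 8.80 in sham and 4.21, 5.01 and 6.67 in irradiated libraries, and it fell by 0.36 ± 0.10 (adjusted p = 0.044), with 4 of 6 irradiated libraries below every sham library, a call lost under 4 alternatives (adjusted p = 0.065 to 0.17). Irradiated libraries 2 and 3 held 6.50 and 6.67 RPKM and libraries 1, 4, 5 and 6 held 4.21 to 5.04. Lamp1 shares its span with the coding gene Grtp1, and the strand setting of the counting is not given in the sources used here.

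Of the 2 transport proteins that rose at 6 h, Mcoln1, the lysosomal calcium channel, held 2.42, 3.81 and 4.99 RPKM in sham and 5.48, 6.15 and 7.75 in irradiated libraries, a change of 0.68 ± 0.17 (adjusted p = 0.0024). At 1 day its values were 2.58, 2.85 and 3.47 against 3.53, 4.73 and 7.12 (0.57 ± 0.17, adjusted p = 0.037). Neither time showed overlap, the 1 day call was lost under 3 alternatives (adjusted p = 0.054 to 0.091), and against sham libraries 5 and 6 alone the 6 h change was 0.60 (adjusted p = 0.25). Ctns, the exporter of cystine (chr11:73183596-73199042), first fell and then rose. At 2 h it held 5.62, 7.03 and 7.80 in sham and 4.05, 4.50 and 5.53 in irradiated libraries (-0.45 ± 0.13, adjusted p = 0.019, 0.691 as a ratio of means), all 6 irradiated values being lower. At 6 h it held 6.63, 7.91 and 8.53 against 10.8, 13.7 and 15.6 (0.71 ± 0.13, adjusted p = 8.3e-05), all 6 being higher. Against sham libraries 5 and 6 alone the 6 h change of Ctns was 0.65 (adjusted p = 0.065). At 1 day and 1 week its groups overlapped (0.11 ± 0.13 and 0.05 ± 0.13).

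Npc1, the membrane protein that exports cholesterol, fell at 6 h, with 10.7, 13.6 and 16.7 RPKM in sham and 8.98, 9.53 and 12.3 in irradiated libraries (-0.42 ± 0.13, adjusted p = 0.02). The ranges overlapped, 4 of 6 irradiated libraries lying below every sham library, and against sham libraries 5 and 6 alone the change was -0.15 (adjusted p = 0.93). Scarb2, the receptor that carries glucocerebrosidase to lysosomes, and Laptm4a, a relative of Laptm5, did not pass the test at any time. Their changes ran from -0.09 to 0.17 for Scarb2 and from -0.21 to 0.25 for Laptm4a.

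Of the 13 hydrolases tested, 5 rose and 1 fell at 6 h, 3 rose at 1 day, 1 fell at 2 h and 0 passed the test at 1 week (2 at an unadjusted p under 0.05). Gusb, which encodes beta-glucuronidase, an enzyme that trims glucuronic acid from glycosaminoglycans (chr5:129989011-130003049), had the smallest adjusted p of all 33 genes. Its sham levels did not pass the test over time (adjusted p = 0.9), with medians of 63.5, 59.8, 63.6 and 61.6 RPKM at 2 h, 6 h, 1 day and 1 week. At 2 h irradiated libraries were at 69.7, 80.04 and 85.8 (lowest, median and highest) beside 53.9, 63.5 and 73.5 in sham, 0.29 ± 0.10, which did not pass the test (adjusted p = 0.069). At 6 h they were at 129, 141 and 164 beside 53, 59.8 and 77.5, a rise of 1.18 ± 0.10 (adjusted p = 3.7e-12, 2.27-fold). The lowest irradiated library was far above the highest sham library, and against sham libraries 5 and 6 alone the rise was 1.04 (adjusted p = 1.8e-06). At 1 day the values were 106, 116 and 128 beside 47.1, 63.6 and 79.4, a rise of 0.84 ± 0.10 (adjusted p = 7.2e-08, 1.78-fold), again with no overlap. At 1 week 4 of 6 irradiated libraries lay above every sham library (64.6 to 79.6 beside 51 to 67.7 RPKM), with a change of 0.25 ± 0.10 (adjusted p = 0.18).

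Naglu, which removes N-acetylglucosamine from heparan sulfate (chr11:101070012-101077672), held 5.52, 3.88, 4.72, 5.17, 13.4 and 12.7 RPKM in the sham libraries 1 to 6 of 6 h and 14, 16.6 and 18.2 (lowest, median and highest) in the irradiated ones. It rose by 1.15 ± 0.19 (adjusted p = 1.6e-05, 2.15-fold). All irradiated libraries were above all sham libraries, but sham libraries 5 and 6 lay just below the irradiated range and far above 1 to 4, and against them alone the change was 0.30 (adjusted p = 0.73). Neu1, a sialidase, held 5.23, 9.58 and 12.9 in sham and 16.4, 21.8 and 28.5 in irradiated libraries at 6 h, a rise of 1.20 ± 0.28 (adjusted p = 0.0015, 2.41-fold) with no overlap. Its counts ran from 2 to 327 reads over all libraries. Gaa, the acid glucosidase that degrades glycogen, held 3.75, 5.28 and 7.23 against 7.53, 8.21 and 12.2 (0.65 ± 0.23, adjusted p = 0.039), also without overlap. Against sham libraries 5 and 6 alone the changes were 0.86 (adjusted p = 0.44) for Neu1 and 0.31 (adjusted p = 0.91) for Gaa. None of Naglu, Neu1 and Gaa passed the test at 2 h, 1 day or 1 week.

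Tpp1 and Ppt1, a peptidase and a thioesterase whose loss causes childhood forms of neuronal ceroid lipofuscinosis, rose at 1 day. Tpp1 held 61.6, 76.6 and 96.8 RPKM in sham and 96.9, 115 and 139.6 in irradiated libraries, without overlap (0.57 ± 0.12, adjusted p = 0.0012, 1.49-fold). At 6 h it held 78.4, 87.2 and 94.7 against 93.9, 118 and 128 (0.37 ± 0.12, adjusted p = 0.02), with 4 of 6 irradiated libraries above every sham library, and against sham libraries 5 and 6 alone the change was 0.33 (adjusted p = 0.56). Ppt1 held 10.6, 12 and 13.5 in sham and 13.3, 15.2 and 17.6 in irradiated libraries at 1 day (0.32 ± 0.09, adjusted p = 0.028), 5 of 6 being above every sham library. At 6 h its groups did not overlap (8.66 to 10.3 and 10.4 to 12 RPKM), with a change of 0.19 ± 0.09 that did not pass the test (adjusted p = 0.13). The rise of Ppt1 at 1 day lost its call under 4 alternatives (adjusted p = 0.053 to 0.15), and Ppt1 shares its span with the coding gene Cap1.

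Arsb, a sulfatase that acts on dermatan and chondroitin sulfate, and Lgmn, the asparaginyl endopeptidase legumain, were the hydrolases that fell. Arsb held 0.542, 1.14 and 1.40 RPKM in sham and 0.348, 0.478 and 0.521 in irradiated libraries at 6 h, all 6 irradiated values being lower (-0.45 ± 0.11, adjusted p = 0.004, 0.452 as a ratio of means). Against sham libraries 5 and 6 alone the change was -0.09 (adjusted p = 0.96). Lgmn held 68.1, 92.1 and 109.9 in sham and 56.7, 73 and 76.2 in irradiated libraries at 2 h (-0.31 ± 0.10, adjusted p = 0.035), with the ranges overlapping except for 1 irradiated library, library 3 at 56.7 RPKM. The call was lost under 4 alternatives (adjusted p = 0.055 to 0.27). At 6 h 5 of 6 irradiated values of Lgmn lay below every sham value (-0.24 ± 0.10, adjusted p = 0.079).

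The other 5 hydrolases tested, Hexa (which acts in ganglioside breakdown), Man2b1 (alpha-mannosidase), Asah1 (acid ceramidase), Glb1 (beta-galactosidase) and Sgsh (heparan sulfamidase), did not pass the test at any time. Hexa went from -0.39 ± 0.14 at 2 h (adjusted p = 0.062) to 0.25 ± 0.14 at 6 h (adjusted p = 0.19). The direction at 6 h depended on the sham libraries. Irradiated values of 21.6 to 26.0 RPKM all lay above sham libraries 1 to 4 (15.1 to 17.4). They all lay below sham libraries 5 and 6 (29.2 to 31.0). Man2b1 reached 0.51 ± 0.19 at 1 week (adjusted p = 0.13), with 4 of 6 irradiated libraries above every sham library. Asah1 was at -0.28 ± 0.11 and -0.24 ± 0.11 at 2 h and 6 h, with 4 of 6 irradiated libraries below every sham library each time (adjusted p = 0.094 and 0.1). Glb1 stayed between -0.15 and 0.07. Sgsh had a median of 20 reads per library, so its changes of -0.41 to 0.04 rest on few reads.

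The 3 proteins of the lumen that are not hydrolases each took a different course. Npc2, which hands cholesterol to Npc1, held 28.8, 36.7 and 45.3 RPKM in sham and 48.5, 53.2 and 54.8 in irradiated libraries at 6 h, without overlap (0.48 ± 0.10, adjusted p = 0.00051). At 1 day 5 of 6 irradiated libraries lay above every sham library, at 0.29 ± 0.10 (adjusted p = 0.11). Npc2 and its partner Npc1 had opposite calls at 6 h, and against sham libraries 5 and 6 alone neither was called, Npc2 being at 0.24 (adjusted p = 0.61). Psap, the precursor of the saposins that present lipids to hydrolases, held 99.1, 118 and 178 in sham and 147, 165 and 186 in irradiated libraries at 6 h (0.38 ± 0.12, adjusted p = 0.015). Only 1 of 6 irradiated libraries lay above every sham library, and against libraries 5 and 6 alone the direction turned, at -0.02 (adjusted p = 0.9997).

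Grn, which encodes progranulin, a secreted and lysosomal glycoprotein (chr11:102430315-102437048), rose at 1 day, and its changes before that were negative and did not pass the test. Its irradiated libraries were at 1209.8, 1603 and 1924 RPKM at 2 h beside 1675, 1968 and 2445 in sham (-0.35 ± 0.12, adjusted p = 0.059), and at 6 h at 1209, 1388 and 1549.8 beside 1439, 1624 and 2175 (-0.29 ± 0.12, adjusted p = 0.08). At 1 day it held 1089, 1259 and 1343 in sham and 1487, 1783 and 2179.9 in irradiated libraries, a rise of 0.53 ± 0.12 (adjusted p = 0.003, 1.45-fold) with no overlap. The irradiated median at 1 day (1783) lay within the sham range of 2 h (1675 to 2445). At 1 week the groups overlapped (-0.04 ± 0.12).

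Of the 6 pump genes tested, 3 rose at 6 h, 0 passed the test at 2 h or 1 day (0 and 2 at an unadjusted p under 0.05), and 1 rose at 1 week. Atp6v0d1, a subunit that joins the membrane sector to the central stalk, held 1.99, 2.70 and 2.86 RPKM in sham and 3.51, 3.95 and 4.26 in irradiated libraries at 6 h (0.48 ± 0.13, adjusted p = 0.0049), while Atp6v1a, the catalytic subunit that splits ATP, held 3.16, 4.40 and 4.81 against 5.30, 5.70 and 7.53 (0.45 ± 0.14, adjusted p = 0.021). Neither pair of groups overlapped. Atp6ap1, an accessory protein of pump assembly, held 43.5, 59.8 and 88.6 against 77.8, 90.4 and 97.7 (0.51 ± 0.16, adjusted p = 0.015), with 4 of 6 irradiated libraries above every sham library. Against sham libraries 5 and 6 alone the changes were 0.41 (adjusted p = 0.38) for Atp6v0d1, 0.68 (adjusted p = 0.08) for Atp6v1a and 0.03 (adjusted p = 0.997) for Atp6ap1. At 1 week Atp6v0d1 was at 1.51, 1.89 and 3.40 in sham and 2.90, 3.26 and 3.65 in irradiated libraries (0.44 ± 0.13, adjusted p = 0.041), with 2 of 6 irradiated libraries above every sham library. That call was lost under 4 alternatives.

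The other 3 pump genes did not pass the test at any time. Atp6v0c, which forms the rotating ring, was at 0.61 ± 0.32 at 6 h and at -0.37 ± 0.32 at 1 day, with wide errors. It had 7 to 140 reads per library, and the table lists a pseudogene, Atp6v0c-ps1, with at most 4 reads. Atp6v1b2, a non-catalytic subunit beside Atp6v1a, was within -0.12 to 0.24. Atp6ap2, the accessory protein also known as the prorenin receptor, was at 0.24 ± 0.12, -0.24 ± 0.12, 0.21 ± 0.12 and 0.26 ± 0.12 over the 4 times, with 5 of 6 irradiated libraries above every sham library at 2 h and at 1 week.

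Tfeb itself did not pass the test at any single time. Its lowest, median and highest RPKM were 0.722, 1.04 and 2.30 in sham and 0.382, 0.616 and 0.828 in irradiated libraries at 2 h (-0.44 ± 0.15, adjusted p = 0.072), with 4 of 6 irradiated libraries below every sham library. At 6 h they were 0.448, 0.749 and 1.18 against 0.881, 1.09 and 1.36 (0.24 ± 0.15, adjusted p = 0.29). These values rest on 2 to 268 reads per library.

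**Figure D2:**
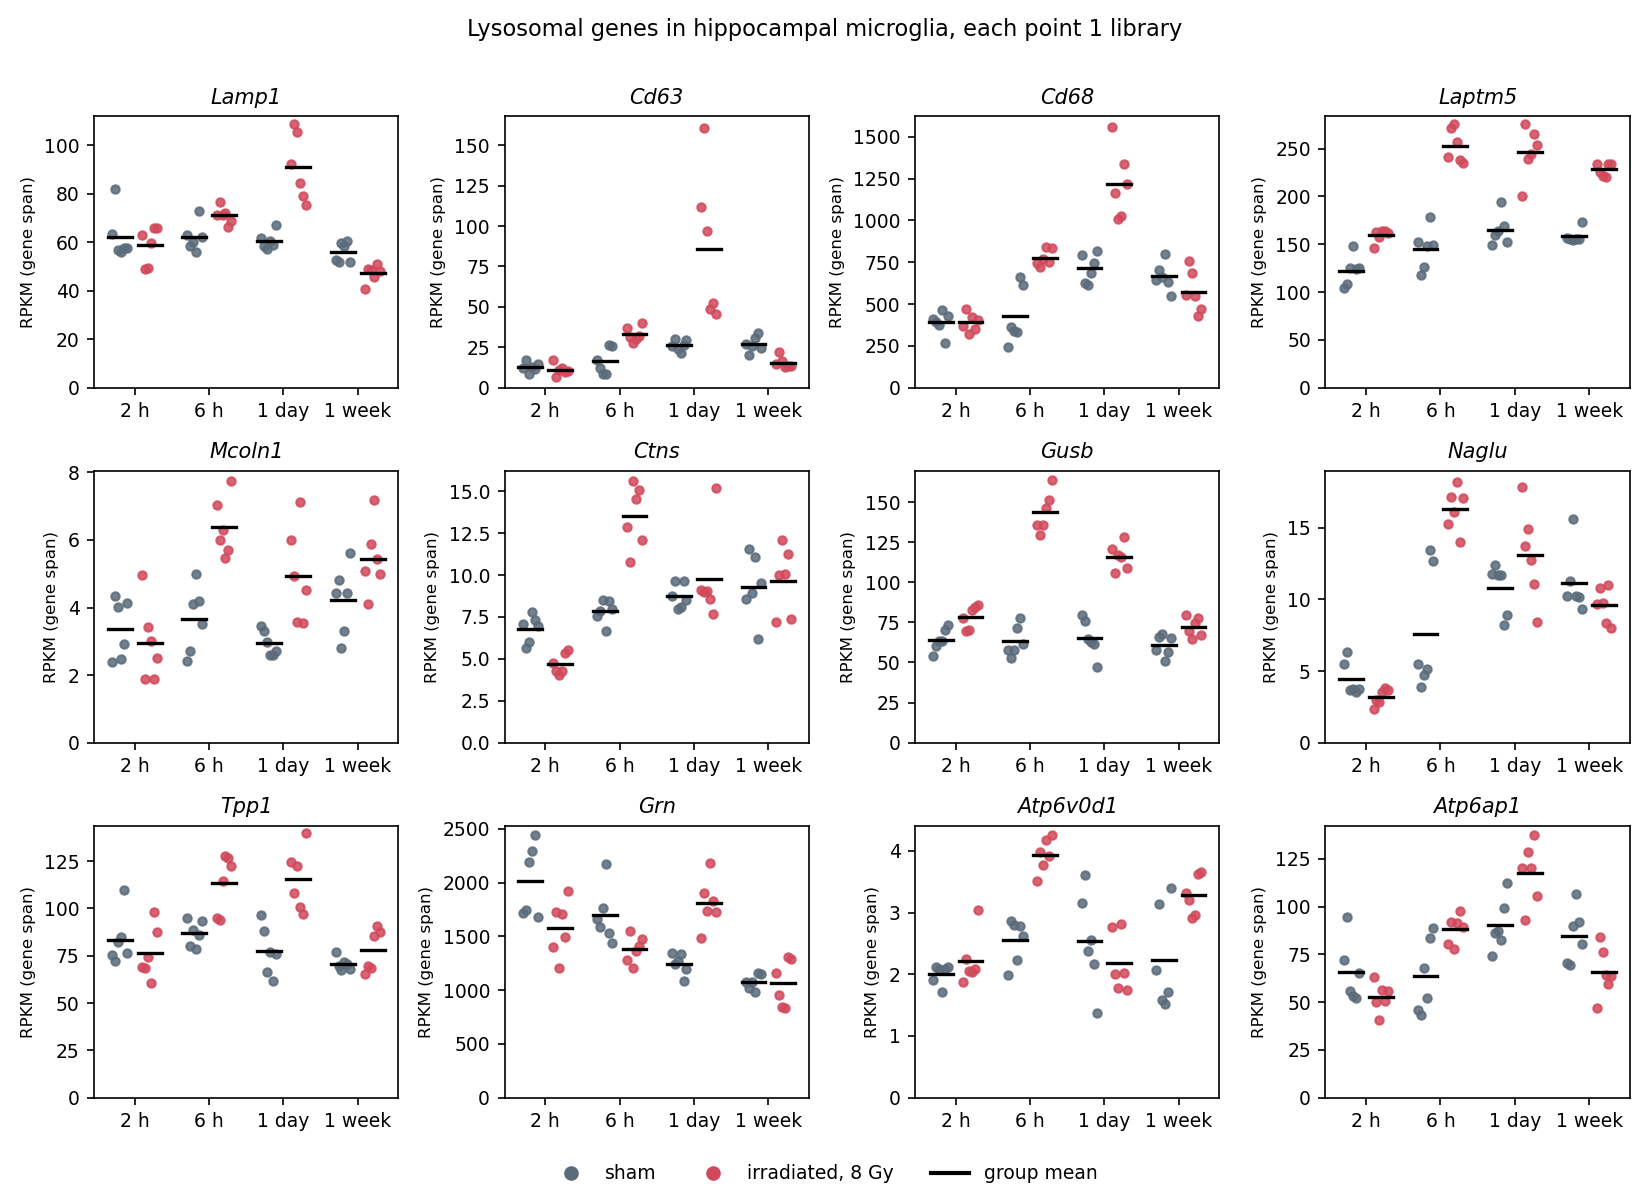
RPKM of 12 lysosomal genes (panels) in each of the 48 libraries, with sham and irradiated libraries side by side at 2 h, 6 h, 1 day and 1 week (each point 1 library, bars group means). The irradiated libraries of Gusb at 6 h (129 to 164 RPKM) and 1 day (106 to 128) stand clear of sham, and the irradiated libraries of Cd63 at 1 day split into 3 at 96.9 to 160.4 and 3 at 45.3 to 52.2 RPKM.

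How the 6 h counts depend on the sham libraries can be read from the 2 sets. With sham libraries 5 and 6 alone, 2 of the 33 genes rose at 6 h (Laptm5 and Gusb) and 0 fell, where 1.56% of all genes tested rose and 0.533% fell. With libraries 1 to 4 alone, 19 were called, of which 15 rose and 4 fell, where 18.6% of all genes tested rose and 11.6% fell. Hexa rose and Atp6ap2 and Grn fell in that fit and not in the one with all 6 sham libraries, while Atp6v1a was lost.

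Libraries 5 and 6 both lay above libraries 1 to 4 for 12 of the 33 genes and below for 6, against 22.2% and 12.5% of all genes. All irradiated 6 h libraries lay above both libraries 5 and 6 for 16 of the 33 genes and below both for 4 (8.91% and 8.15% of all genes), and above all of libraries 1 to 4 for 17 and below for 3 (14.8% and 8.75%). Except for Psap, the sign of the change was the same with either set for the 17 genes called at 6 h. The smaller number of sham libraries in the set of 2 also widens the errors.

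**Figure D3:**
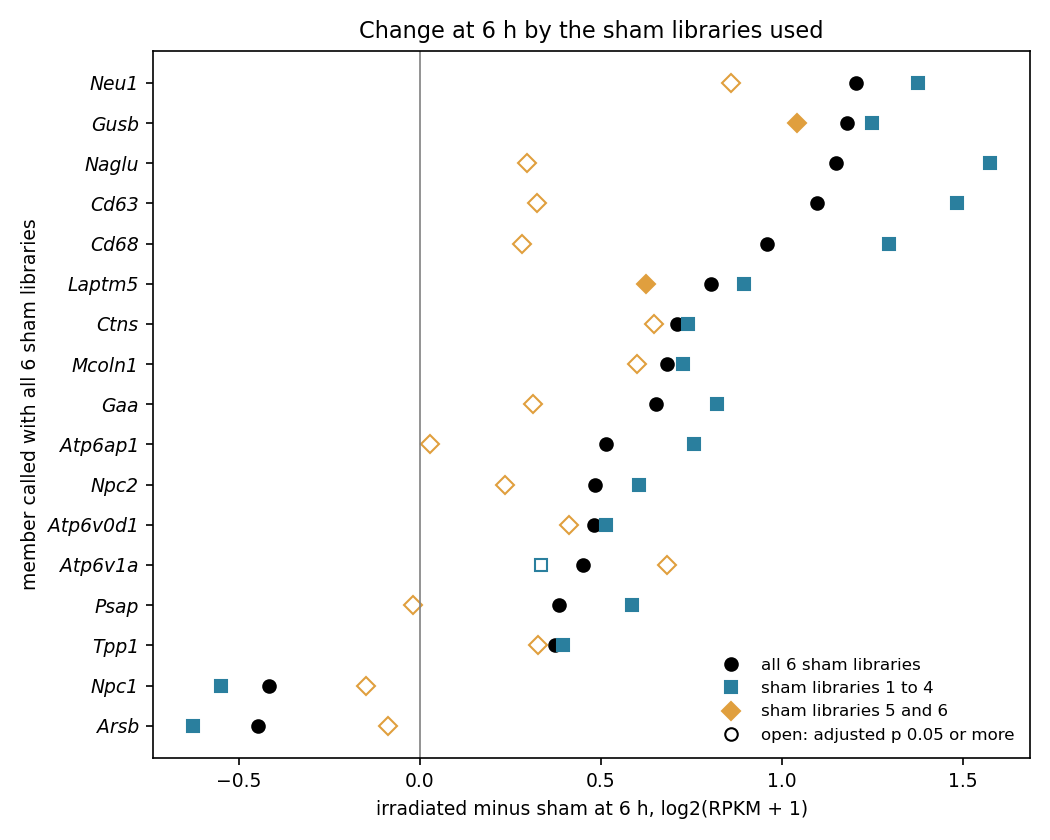
Irradiated minus sham change at 6 h, log2(RPKM + 1), of the 17 lysosomal genes called with all 6 sham libraries, computed with all 6, with sham libraries 1 to 4 and with sham libraries 5 and 6 (open symbols, adjusted p of 0.05 or more). With libraries 5 and 6, Gusb (1.04) and Laptm5 (0.63) keep filled symbols and the other 15 are open.

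Reads summed over a subclass, per 1000000 reads on genes (RPM), weigh each gene by its abundance and are given as description. The 10 membrane genes together took 6301 to 8465 RPM in sham and 9993 to 10893 in irradiated libraries at 6 h, 7759 to 8743 and 11001 to 12698 at 1 day, and 7423 to 7880.1 and 8510.5 to 9337 at 1 week, with no overlap at these 3 times. At 2 h the ranges overlapped (5820.3 to 7111 and 6632 to 7274). Laptm5 contributed the most reads among them, with a sham median of 3504 RPM. Without it the other 9 membrane genes took 3425 to 4346 RPM in sham and 4447 to 4728 in irradiated libraries at 6 h and 4047 to 4561 and 5385 to 7097 at 1 day, without overlap. At 1 week the 9 genes were not higher, at 3697 to 4310.0 in sham and 3239 to 4141 in irradiated libraries, with means of 3979 and 3569 RPM. Irradiated libraries 2 and 3 took 4141 and 4005 RPM, and libraries 1, 4, 5 and 6 took 3239 to 3449. The 7 pump genes took 1323 to 1371 RPM in sham and 1549 to 1798 in irradiated libraries at 6 h, also without overlap, and overlapped at the other times. The 14 hydrolases overlapped at all 4 times (8960.4 to 10429 and 9737 to 11115 at 6 h). The 3 lumen genes, most of whose reads come from Grn, were at 11175 to 13551 in sham and 14190.1 to 19622 in irradiated libraries at 1 day, without overlap, and overlapped at 6 h (14162 to 17846 and 13408 to 16096).

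**Figure D4:**
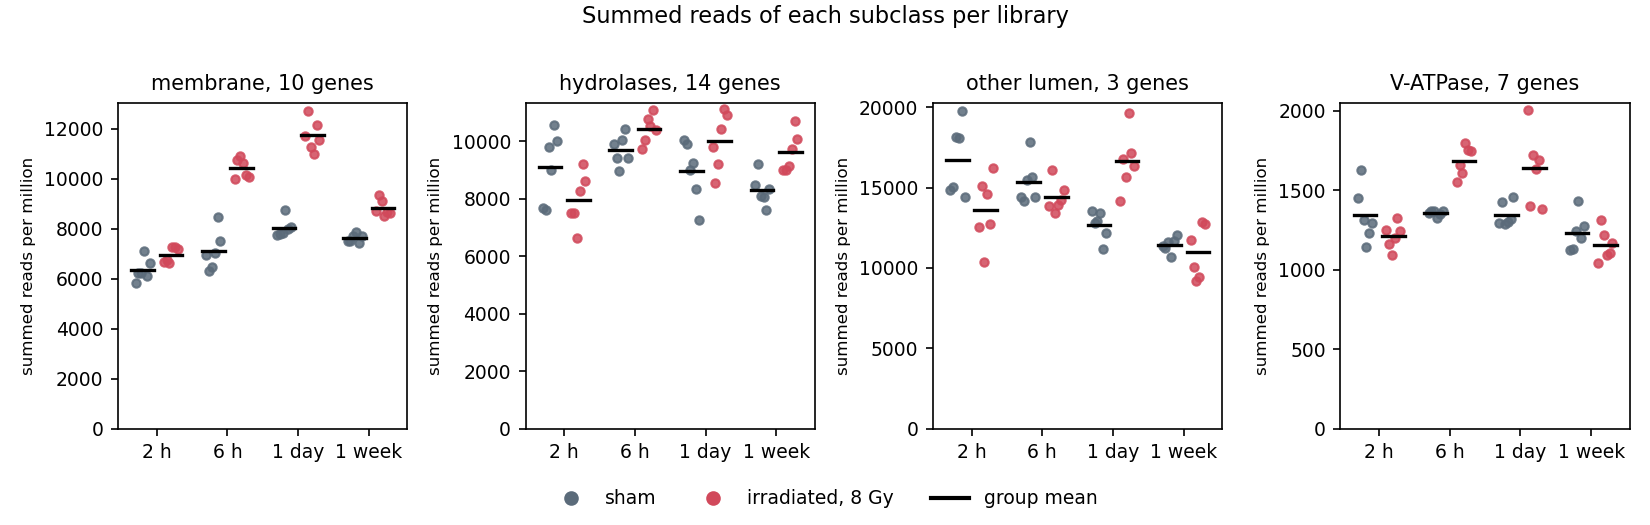
Summed reads, per 1000000 reads on genes, of the membrane, hydrolase, other lumen and proton pump genes (4 panels) in each of the 48 libraries, sham beside irradiated at 4 times. The membrane genes of irradiated libraries lie above sham from 6 h to 1 week (at 1 week through Laptm5 alone, the other 9 summing to a lower mean), the lumen genes only at 1 day and the pump genes only at 6 h.

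Cell type markers also differed at these times. The 10 microglial markers summed to 39864 to 43990.1 RPM in sham and 30654 to 33858 in irradiated libraries at 6 h and to 32643 to 42286 and 22008 to 31974 at 1 day, with 5 of 10 lower at 6 h (2 of 10 with sham libraries 5 and 6 alone) and 6 of 10 at 1 day. Of all genes, 8.0% were lower at 6 h (0.533% with sham libraries 5 and 6 alone). At 1 day 1.39% of all genes were lower and 2.9% higher. The perivascular macrophage list summed to 108 to 173 in sham and 41.1 to 80.9 in irradiated libraries at 6 h, 1 of 3 genes tested being lower (Mrc1, -0.64 ± 0.10, adjusted p = 1.3e-05). Mrc1 against sham libraries 5 and 6 alone was at -0.52 ± 0.15 (adjusted p = 0.054). At 1 day, the time at which Cd63, Lamp1 and Grn rose, the monocyte and neutrophil list summed to 12.9 to 51.3 RPM in sham and 25.1 to 91.9 in irradiated libraries, with 1 of 2 genes tested higher (Plac8, 0.79 ± 0.21, adjusted p = 0.016) and Ccr2 at -0.04 ± 0.17, adjusted p = 0.96. The neuronal list stayed at or under 11.4 RPM but for 1 irradiated library of 1 week at 364.9, where Slc17a7 alone was at 364.5. The part of these cell types in the lysosomal results was not tested.

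Whether an effect differed between adjacent times was tested as a difference of changes, neighbouring tests sharing the libraries of the time between them. From 2 h to 6 h the change went up for 13 of the 33 genes and down for 1, where 5.56% and 3.72% of all genes did so. Ctns turned from lower to higher, a difference of 1.16 ± 0.18 (adjusted p = 3.3e-05). Naglu had the largest difference, 1.5 ± 0.27 (adjusted p = 0.00022), and that of Gusb was 0.89 ± 0.14 (adjusted p = 4.7e-05). Tfeb and Hexa, called at neither time, also differed (0.68 ± 0.22, adjusted p = 0.042, and 0.64 ± 0.19, adjusted p = 0.026). Arsb was the gene that went down (-0.51 ± 0.16, adjusted p = 0.04). With sham libraries 5 and 6 alone, 2 of these 14 differences were called, where 45 of all genes went up and 40 down. With median of ratios scaling 7 lysosomal genes went up and 2 down (448 and 484 of all genes).

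From 6 h to 1 day the change of 1 gene went up and that of 2 went down (1.71% and 2.67% of all genes). Grn went up by 0.82 ± 0.17 (adjusted p = 0.0026). Naglu (-0.91 ± 0.27, adjusted p = 0.041) and Atp6v0d1 (-0.61 ± 0.18, adjusted p = 0.038) went down. Against sham libraries 5 and 6 alone 0 of these were called, where 16 of all genes went up and 16 down. With median of ratios scaling 3 lysosomal genes went up and 1 down (242 and 217 of all genes). With the span and GC trends removed 2 went up and 0 down (84 and 85 of all genes). From 1 day to 1 week 8 genes went down and 0 up (2.89% and 2.54% of all genes), 4 of them membrane proteins. Cd63 had the widest difference (-2.30 ± 0.35, adjusted p = 4.1e-05), followed by Cd68 (-0.99 ± 0.23, adjusted p = 0.0075), Lamp1 (-0.80 ± 0.13, adjusted p = 0.00017) and Atp6ap1 (-0.75 ± 0.22, adjusted p = 0.037). The others were Gusb, Grn, Lamp2 and Npc2, at -0.59 to -0.55. The difference of Laptm5 between 1 day and 1 week was -0.05 ± 0.12 (adjusted p = 0.86).

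Levels without irradiation also differed over the 4 sham groups for 16 of the 33 genes (48.5%), where 21.1% of all genes did. Time after the procedure, age and handling day cannot be told apart here. Grn had the smallest adjusted p (2.0e-06), with sham medians of 1968, 1624, 1259 and 1076 RPKM at 2 h, 6 h, 1 day and 1 week. Atp6ap2 had medians of 6.50, 6.40, 4.48 and 4.23 (adjusted p = 0.00024). Both had lower medians at 1 day and 1 week than at the 2 earlier times. For both, sham libraries 5 and 6 of 6 h lay below libraries 1 to 4. They held 1439 and 1536 RPKM beside 1583 to 2175 for Grn, and 4.65 and 5.26 beside 5.38 to 9.49 for Atp6ap2. In the other direction Naglu had sham medians of 3.74, 5.35, 11.7 and 10.2 (adjusted p = 1.7e-05), Cd68 403, 352, 716 and 653 (adjusted p = 2.8e-05), and Cd63 12.6, 14.4, 26 and 26.3 (adjusted p = 0.0015). Sham libraries 5 and 6 of 6 h lay near the 1 day sham level for these 3 genes. All 3 lumen genes, 5 of 10 membrane genes, 4 of 13 hydrolases and 4 of 6 pump genes were among the 16.

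Levels can be compared between genes only per length. Taking reads as exonic, which the sources used here do not state, sham medians in RPM per kilobase of exon were highest for Grn (2697), Lgmn (1689), Psap (1130), Cd68 (949) and Laptm5 (925), followed by Lamp1 (355) and Hexa (311). The lowest were Sgsh (2.10), Atp6v1h (6.09), Mcoln1 (6.61), Atp6v0c (6.92) and Manba (7.26). The genes that rose spanned this range, from Laptm5 and Cd68 near the top to Mcoln1 and Neu1 (10.9) near the bottom. Gusb lay between, at 195.

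Lysosomal genes outside the 35, from 4 lists, were read from the same fit. At 6 h their counts stand beside 12.9% of all genes higher and 8.0% lower, and their counts against sham libraries 5 and 6 alone, an alternative chosen after seeing the data, beside 1.56% and 0.533%. The shares of all genes higher and lower were 4.6% and 4.02% at 2 h, 2.9% and 1.39% at 1 day, and 2.03% and 1.51% at 1 week. Of 11 other pump subunits tested, 6 rose and 1 fell at 6 h and 0 passed the test at the other 3 times (4, 4 and 2 at an unadjusted p under 0.05 at 2 h, 1 day and 1 week). Atp6v1d (0.78 ± 0.15, adjusted p = 0.00018) and Atp6v0b (0.89 ± 0.18, adjusted p = 0.00039) rose and Atp6v0a2 fell (-0.57 ± 0.12, adjusted p = 0.00073). By the same test 0 of the 11 were called against sham libraries 5 and 6 alone (3 at an unadjusted p under 0.05), with Atp6v1d, Atp6v0b and Atp6v0a2 at 0.69 ± 0.21 (adjusted p = 0.083), 0.64 ± 0.26 (adjusted p = 0.29) and -0.24 ± 0.16 (adjusted p = 0.74). Of 22 other hydrolases and lumen proteins, 1 rose and 2 fell at 2 h, 7 and 2 at 6 h, 5 and 0 at 1 day, and 0 and 2 at 1 week. Fuca1, a fucosidase (0.87 ± 0.14, adjusted p = 1.0e-05), and Gla, alpha-galactosidase (1.01 ± 0.21, adjusted p = 0.00053), rose at 6 h. With only sham libraries 5 and 6, 1 of the 22 rose, Fuca1 at 0.88 ± 0.20 (adjusted p = 0.0085), and 1 fell, with Gla at 0.91 ± 0.31 (adjusted p = 0.17). At 1 day Gla (1.07 ± 0.21, adjusted p = 0.00067), Galns (0.77 ± 0.19, adjusted p = 0.007) and Fuca1 (0.56 ± 0.14, adjusted p = 0.0085) rose. Lipa, the acid lipase, fell at 2 h (-0.61 ± 0.15, adjusted p = 0.0052) and at 1 week (-0.54 ± 0.15, adjusted p = 0.036), and Acp2, an acid phosphatase, rose at 2 h (0.43 ± 0.12, adjusted p = 0.019).

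Of 17 other membrane proteins, 1 rose and 1 fell at 2 h, 3 and 3 at 6 h, 1 and 0 at 1 day, and 1 and 1 at 1 week. Slc15a3, a carrier of histidine and bacterial peptides, rose at 2 h (1.75 ± 0.16, adjusted p = 8.6e-12), 6 h (1.48 ± 0.16, adjusted p = 9.7e-10) and 1 day (0.99 ± 0.16, adjusted p = 1.4e-05). Cd164, a sialomucin, fell at 6 h (-1.36 ± 0.13, adjusted p = 3.5e-11) and Litaf rose (0.81 ± 0.16, adjusted p = 0.00017). Set against sham libraries 5 and 6 alone, Slc15a3 rose by 1.25 ± 0.19 (adjusted p = 1.7e-05) and the change of Cd164, which also passed the test, was -0.999 (adjusted p = 0.00011). The other 15 did not pass it, Litaf being at 0.36 ± 0.20 (adjusted p = 0.62). Slc38a9, an amino acid sensor, fell at 2 h (-0.53 ± 0.10, adjusted p = 0.00018). At 1 week Slc29a3 fell (-0.69 ± 0.17, adjusted p = 0.014) and Clcn7, a chloride and proton exchanger, rose (0.66 ± 0.19, adjusted p = 0.041). Among 13 regulators and sorting genes, 1 rose at 2 h, 7 rose and 1 fell at 6 h, 1 rose at 1 day and 0 passed the test at 1 week (3 at an unadjusted p under 0.05). M6pr, a mannose 6-phosphate receptor that delivers hydrolases, rose at 2 h (0.60 ± 0.10, adjusted p = 1.5e-05) and 1 day (0.34 ± 0.10, adjusted p = 0.032). It also rose at 6 h (0.39 ± 0.10, adjusted p = 0.0027), and was at 0.43 ± 0.14 (adjusted p = 0.11) against sham libraries 5 and 6 alone. At 6 h Flcn, which acts on growth signalling at the lysosome (0.74 ± 0.12, adjusted p = 9.7e-06), and Gnptg, part of the enzyme that tags hydrolases (1.24 ± 0.25, adjusted p = 0.00028), rose, and the sorting receptor Sort1 fell (-1.05 ± 0.17, adjusted p = 8.1e-06). When set against sham libraries 5 and 6 alone, 2 of the 13 rose, Flcn at 0.81 ± 0.17 (adjusted p = 0.002) and Rragc, a growth signalling GTPase named here after its value was seen, at 0.83 ± 0.23 (adjusted p = 0.043), and 0 fell. Gnptg was then at 0.41 ± 0.31 (adjusted p = 0.79) and Sort1 at -0.69 ± 0.21 (adjusted p = 0.072).

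Of the 35 genes, 8 share part of their span with another coding gene in the GENCODE vM21 annotation (Lamp1 with Grtp1, Npc1 with 3110002H16Rik, Ppt1 with Cap1, Glb1 with Tmppe, Sgsh with Card14, Grn with Fam171a2, Atp6v1b2 with Slc18a1 and Atp6v1h with Rgs20), and their reads are uncertain where these overlap. Gene positions are as the deposited table gives them, in GRCm38, and 29 of 35 are identical in that annotation.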

How the data were processed

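Bulk RNA sequencing covered 48 libraries, and samples were grouped by the labels' titles. The submitters' processing notes name STAR 2.6.1d, featureCounts 1.5.1, FastQC 0.11.8 and bcl2fastq 2.20.0, with builds GRCm38 and mm10. Strand and annotation are not given in the sources used here. The authors deposited RPKM. Each value is a whole number of reads (100% of 719081 values above 0, within 0.001 reads) over the gene span and over a library total that was mostly another library's (2.05% used their own). Reads were recovered, 48 totals matched to libraries (largest gap 13 reads), and RPKM recomputed with each library's own total. Deposited values were 0.436 to 3.11 times these (5th to 95th percentile).

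limma 3.58.1 (R 4.3.3) was fitted on log2(RPKM + 1), pseudocount 1, with 8 group means, a trended and robust prior and 40 residual degrees of freedom, tested on simulated data. Library depth was 175382 to 3856777 reads. Samples are separate animals. The lists and the genes described were chosen with earlier results of these data known. Values are given for genes called at any time, and up to 3 genes per other list and time, by smallest adjusted p; some of these are not reported here. Markers were summed as RPM. Alternatives changed the pseudocount, filter, scaling, model (voom), values, libraries, gene span and GC trend, or added a replicate block.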

Additional observations from a re-analysis of the deposited data

Results flagged for a closer look

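Over the 33 genes and 8 groups of 6 libraries, 264 groups were checked for a highest or lowest library whose gap to the nearest other library, over the whole range of the group, exceeded Dixon's critical value at the 0.05 level, and 24 had one. By construction that level passes about 1 in 20 groups by chance. In the sham group of 2 h these were Lamp1 in library 2 at 82.1, Asah1 in library 2 at 26.9, Tpp1 in library 5 at 110.0, Sgsh in library 3 at 5.18 and Tfeb in library 6 at 2.3 RPKM. The irradiated group of 2 h had Laptm5 in library 1 at 146.0, Lgmn in library 3 at 56.7, Sgsh in library 1 at 2.06, Atp6v0d1 in library 6 at 3.03 and Atp6v1b2 in library 5 at 10.8 RPKM. Irradiated libraries of 6 h had Lgmn in library 5 at 89.2 and Atp6ap2 in library 1 at 4.47 RPKM. Sham at 1 day had Glb1 in library 5 at 2.19 RPKM. Irradiated at 1 day had Ctns in library 6 at 15.2, Asah1 in library 1 at 27.1, Atp6v0c in library 5 at 7.79 and Atp6ap2 in library 1 at 8.43 RPKM. Sham at 1 week had Laptm5 in library 6 at 173.0, Laptm4a in library 4 at 16.7, Arsb in library 1 at 0.904, Naglu in library 3 at 15.6, Npc2 in library 3 at 31.7 and Atp6v1a in library 4 at 3.78 RPKM. Irradiated at 1 week had Sgsh in library 3 at 1.76 RPKM.

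The effect of irradiation differed between adjacent times for 25 gene and time pairs, by the limma test of the difference of the changes in log2(RPKM + 1) (adjusted p under 0.05). From 2 h to 6 h these were Cd63 1.31, Cd68 0.95, Laptm5 0.42, Mcoln1 0.86, Ctns 1.16, Gusb 0.89, Hexa 0.64, Tpp1 0.50, Arsb -0.51, Naglu 1.5, Psap 0.53, Atp6v1a 0.68, Atp6ap1 0.80 and Tfeb 0.68. From 6 h to 1 day they were Naglu -0.91, Grn 0.82 and Atp6v0d1 -0.61. From 1 day to 1 week they were Lamp1 -0.80, Lamp2 -0.55, Cd63 -2.30, Cd68 -0.99, Gusb -0.59, Npc2 -0.55, Grn -0.57 and Atp6ap1 -0.75. The first 17 of these use the 6 h sham libraries, which fell into 2 sets.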

How the results depend on the processing

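Counts of lysosomal genes called, out of 33, were compared with the reported 3, 17, 9 and 3 (2 h, 6 h, 1 day, 1 week), 14, 3 and 8 (differences 6 h minus 2 h, 1 day minus 6 h, 1 week minus 1 day) and 16 (sham over time). With values as deposited the first 7 were all 0 and the sham count was 2; those values are divided by totals of other libraries. With sham 6 h libraries 5 and 6 only, the counts were 5 at 2 h, 2 at 6 h, 2 for 6 h minus 2 h and 0 for 1 day minus 6 h, and with libraries 1 to 4 only the last was 7. Without a filter on low values, 1 week gave 1, 6 h minus 2 h gave 8 and 1 day minus 6 h gave 1. With times fitted alone, 2 h gave 1 and those differences 8 and 1, and at 6 h 13 genes rose and 1 fell. Without the libraries under 1000000 reads, 2 h gave 5 and 6 h minus 2 h gave 9, and at 6 h 12 genes rose and 1 fell. The count for 6 h minus 2 h was 9 with median of ratios scaling and 6 with span and GC trends removed. With these trends removed 11 genes rose and 3 fell at 6 h. Limma voom gave 5 at 1 week. Apart from the deposited values and sham choices, the cause was not tested. The 1 day count ran from 7 to 9 and the 1 week minus 1 day count from 6 to 11 over the alternatives other than the deposited values.

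At 2 h the calls of Laptm5, Ctns and Lgmn were each lost under at least 1 alternative, and at 1 week those of Lamp2 and Atp6v0d1 with no filter, with times alone, with the span and GC trends removed and in the replicate block fit. At 6 h the calls of Cd63, Gaa, Tpp1, Psap, Npc1, Atp6v1a and Atp6ap1 were lost under at least 1 alternative other than the sham sets and the deposited values. The calls of Mcoln1 and Ppt1 at 1 day were lost under 3 and 4 alternatives. At 1 week, 1 gene rose and 3 fell with the span and GC trends removed (164 and 200 of all genes). At 2 h 2 rose and 1 fell with median of ratios scaling (513 and 391 of all genes). Removing these trends moved the 6 h median of all genes from 0.08 to -0.02 and that of the lysosomal genes from 0.25 to 0.19. With limma voom the median of all genes was -0.13 at 1 day, -0.27 for 1 day minus 6 h and 0.20 for 1 week minus 1 day. Psap at 6 h turned to -0.019 with sham libraries 5 and 6 only, the 1 reversal among the 57 called changes.

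Replicate numbers did not pair the samples (correlations of same-numbered deviations -0.107 to 0.137; in 7 of 24 cases the own number correlated best). With the replicate block the counts were 4, 17, 9, 1, 13, 2, 8 and 16, so that 1 week went from 3 to 1. Over all genes, the 1 week calls went from 206 up and 153 down to 185 and 127. Genes with few reads, such as Sgsh, Neu1 and Tfeb, are limited by depth, most so in the 3 shallow libraries.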
